A study of Mus musculus with 4 samples.

Results

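Mesothelial nuclei were examined in single-nucleus RNA-Seq of mouse lung, as 6152 of the 134745 barcodes that held at least 1500 unique molecular identifiers (UMIs, each counting a captured transcript once). A barcode was taken when it had at least 8 UMIs from at least 4 of Wdr17, Nxph1, Bnc2, Nrg2, Fras1, Tmem108, Lhfpl3 and Msln, at most 2 UMIs of the leukocyte gene Ptprc and at most 3 UMIs in total from the endothelial genes Pecam1, Cdh5, Tek and Ptprb. The lungs came from 2 WT and 2 VEcad-TRF2DN-Tg mice, both of the C57/BL6J background. The paper describes the animals as males that entered experiments at 8 to 9 weeks of age, and these mice as exposed to chronic hypoxia. It does not give their age when the lungs were taken. The Tg mice make TRF2DN, a mutant of a telomere-binding protein that blocks the normal one, under the VE-cadherin promoter, which is active in endothelial cells (ECs) and is not known to be active in mesothelium. No WT or Tg mouse in normal air and no other treatment was part of these libraries, and each library was made from the lung of 1 mouse.

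The mesothelium is the thin epithelium-like sheet that covers the lung under the pleural cavity. It comes from the mesoderm, joins keratins and uroplakins of epithelia with the mesenchymal filament vimentin, and lays down a basement membrane together with the tissue below it. It makes lubricating mucins, retinoic acid and signals such as fibroblast growth factors, WNT proteins and SLIT ligands, and it is known for its ability to turn toward a fibroblast-like state under TGF-beta.

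The members were chosen by their own UMIs of the 8 rule genes, so that the comparison of the chosen barcodes with the rest is given as a description, with no test, and a rule gene was tested between genotypes only on nuclei chosen without it. The rule took 385 and 473 barcodes in WT mice and 2180 and 3114 in Tg mice. Their median depth was 4176 and 4471 UMIs in WT mice and 3048.5 and 3496 UMIs in Tg mice, and the median number of genes detected was 2269 and 2482 against 1803 and 2127. Nuclei of Tg mice were thus shallower on median. All 8 rule genes were present in 7.53% and 6.34% of the WT members and in 8.49% and 8.64% of the Tg members, whereas exactly 4 were present in 14.0% and 26.4% against 15.0% and 15.3%. At the border of the rule, 20, 45, 29 and 112 members (WT 1, WT 2, Tg 1, Tg 2) had 8 or 9 UMIs of the rule genes, and 25, 66, 33 and 136 barcodes with 6 or 7 stayed outside. The limits on Ptprc and the endothelial genes removed 27, 219, 304 and 845 barcodes in the same order, which is 6.55%, 31.6%, 12.2% and 21.3% of those that met the marker part of the rule.

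The name of the class was checked on 26 mesothelial markers that the rule did not use. Their summed level was 9434 and 8947 CPM in WT members and 10871 and 10722 in Tg members, against 1847, 2943, 3169 and 4122 CPM in all other barcodes of the same mice. CPM stands for the UMIs of a gene or list divided by all UMIs summed over the nuclei of that class in a mouse, scaled to a common total. None of the 26 markers was at 0 in any mouse. Gpm6a, a neuronal-type membrane glycoprotein that mesothelium also makes, had 3249, 2999, 2410 and 2823 CPM in the members against 229, 349, 191 and 335 in the other barcodes. Wt1, the zinc finger factor that marks mesothelium from the embryo on, had 238, 234, 184 and 173 against 8.93 to 29.6. With every nucleus thinned to 1500 UMIs, Gpm6a was detected in 92.0%, 91.5%, 92.0% and 93.8% of the members, and Muc16, the large membrane mucin of serosal surfaces, in 56.9%, 53.7%, 61.1% and 57.3%. The same thinned share of Muc16 was 2.06% to 6.72% in alveolar fibroblast nuclei and 1.88% to 7.71% in alveolar type 1 nuclei. That of Gpm6a was 16.3% to 23.8% in alveolar fibroblast nuclei and 32.9% to 42.9% in alveolar type 1 nuclei. Not all markers separated the members this well. Krt19, a keratin of simple epithelia, had 19.9, 31.0, 115 and 85.8 CPM in the members, close to the other barcodes of each mouse in the plot of the defining markers. Igfbp2 went the other way in every mouse, with 26.1, 23.2, 32.5 and 36.6 CPM in the members against 41.5, 53.4, 48.2 and 53.8. Prg4 was lower in the members than in the other barcodes in all mice but WT 1, and Slpi in WT 2 and Tg 2. In empty droplets, described below, the 26 markers summed to 2695, 3997, 7423 and 7627 CPM. Upk3b had 82.1, 186, 387 and 322 CPM in the members against 53.6, 169, 377 and 358 there. The rule gene Msln had 239, 144, 378 and 397 against 108, 123, 386 and 459. Gpm6a had 296 to 455 in these droplets and Wt1 had 13.2 to 30.3, far below the members.

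**Figure D1:**
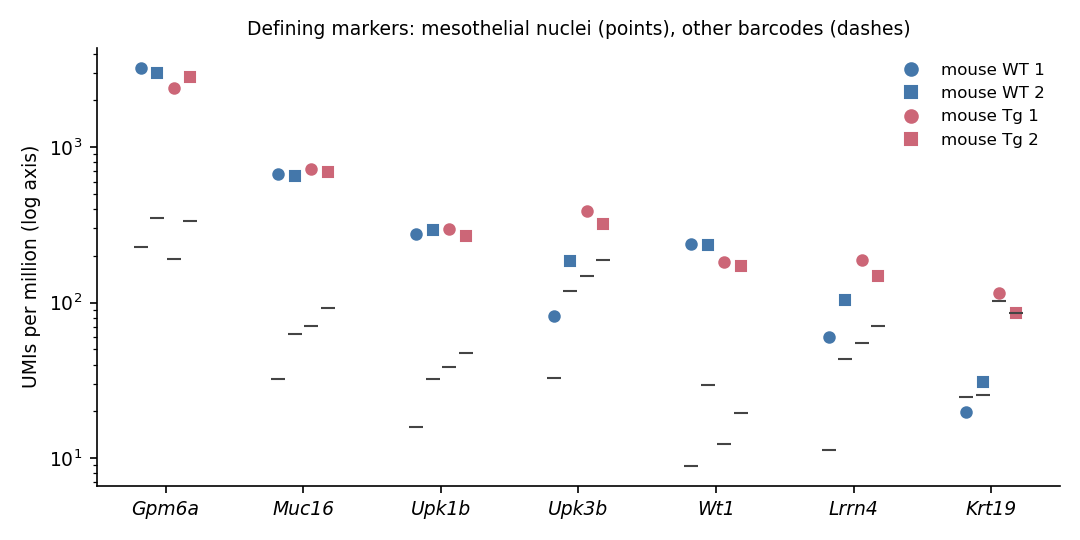
Level of 7 mesothelial genes that the rule did not use, in CPM on a log axis, in the summed mesothelial nuclei of each mouse (points) and in all other barcodes of at least 1500 UMIs of that mouse (dashes). Gpm6a, Muc16, Upk1b and Wt1 lie far above the dashes in all 4 mice, whereas Krt19 lies close to them.

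Markers of the other cell types of the lung were present in the members at low to high levels, with 8 genes in each list. Alveolar type 2 markers summed to 2238 and 2985 CPM in WT members and 6715 and 7216 in Tg members, below the 5120, 6324, 10450 and 10792 of the other barcodes of the same mice and the 5966, 7840, 20764 and 18422 of empty droplets. Empty droplets stand here for the barcodes ranked 45000 to 90000 by UMIs, with 7 to 1474 UMIs each. They were taken by rank alone, so that some may hold a nucleus: 1, 11, 8 and 86 of the 45000 in each mouse met the marker part of the mesothelial rule. Club cell markers summed to 6181 and 5930 in WT members and 34140 and 13993 in Tg members, with no marker of these 2 lists at 0. Free RNA was thus not equal between genotypes: 8 secretory genes took 2.09% and 2.03% of the UMIs of such droplets in WT mice and 14.9% and 5.61% in Tg mice, and their share in the members was 32.9%, 35.3%, 26.4% and 33.9% of that share. Some lists were higher in the members than in the other barcodes in every mouse. Alveolar fibroblast markers summed to 2084 and 1849 in WT members and 1201 and 1397 in Tg members, against 1379, 1448, 1150 and 1079. Alveolar type 1 markers summed to 1743, 1841, 1717 and 1669, against 1332, 1597, 1485 and 1225. Adventitial fibroblast markers summed to 1266, 1387, 1307 and 1340, against 386, 665, 458 and 589. Endothelial markers came to 237 to 360 and immune markers to 258 to 501, both of which the rule limited. Smooth muscle markers came to 16.2, 18.9, 68.9 and 36.7 with Cnn1 at 0 in both WT mice, and neuronal and Schwann cell markers to 6.27 to 15.6 with Sox10 at 0 in 3 of the 4 mice. The marker rule of alveolar type 1, alveolar fibroblast or ciliated nuclei was also met by 20.3% and 28.8% of the WT members and by 17.2% and 20.5% of the Tg members. The alveolar type 2 rule separated nothing, since 74.1% to 98.1% of all barcodes of this depth met it. Of the member barcodes, 1 occurred in the members of 2 libraries (WT 2 and Tg 2).

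Genes outside the rule that stood out in the members were ranked by the lowest ratio over the 4 mice, members against other barcodes, among genes with at least 20 UMIs in the members of each mouse. The rule genes were left out of the ranking, in which Nxph1 (17.7) and Wdr17 (16.5) would have come above all others. The 20 leading genes had a lowest ratio of 11.5 to 16.4, and 11 of them were protein-coding and 9 noncoding. Gata4, a zinc finger factor of mesodermal organs, had 66.4, 72.0, 93.8 and 152.0 CPM, and Gli2, the transcription factor at the end of Hedgehog signaling, had 201, 223, 183 and 177. Gli2 was not particular to the members, since alveolar fibroblast nuclei held 150, 128, 75.2 and 95.1 CPM of it. Unc13c, a protein of vesicle release, had 124, 37.8, 128 and 80.4. Trpm8, the cold-sensing cation channel, and Ephb1, a receptor for ephrins, were also among them. Of the 20, 16 did not pass edgeR's test between genotypes, Gata4, Gli2 and Unc13c among them, and 4 did: Gm4577, A630012P03Rik and Synpr were higher and Gm2164 lower in Tg mice, where 9.15% of all genes tested in the members passed the threshold. A630012P03Rik, annotated antisense to the glypican gene Gpc3, had 41.3 and 33.2 CPM in WT and 256 and 119 in Tg members (2.32 ± 0.391, edgeR adjusted p = 0.0148). Its log2 difference was 2.46 in alveolar fibroblast and 2.78 in alveolar type 1 nuclei, neither past the threshold, and 1.53 in empty droplets.

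The start of Gpm6a and of Slit3 is shown because Gpm6a was the outside marker found in at least 91.5% of the thinned members of each mouse and lies on the strand opposite the rule gene Wdr17, and because Slit3 is the gene whose genotype change differed from that of fibroblast nuclei with the lowest p. Both are the 250 bases before the annotated start in RefSeq (build GRCm38.p6), on the plus strand of the genome, 5′ to 3′, and capitals mark a match to the TEAD motif GGAATG, searched on both strands.
Gpm6a, chr8:54779184-54779433: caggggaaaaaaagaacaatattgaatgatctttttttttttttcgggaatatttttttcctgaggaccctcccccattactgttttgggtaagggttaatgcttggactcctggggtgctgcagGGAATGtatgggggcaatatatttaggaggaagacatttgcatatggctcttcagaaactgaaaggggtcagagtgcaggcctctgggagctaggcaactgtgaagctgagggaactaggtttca
Slit3, chr11:35121206-35121455: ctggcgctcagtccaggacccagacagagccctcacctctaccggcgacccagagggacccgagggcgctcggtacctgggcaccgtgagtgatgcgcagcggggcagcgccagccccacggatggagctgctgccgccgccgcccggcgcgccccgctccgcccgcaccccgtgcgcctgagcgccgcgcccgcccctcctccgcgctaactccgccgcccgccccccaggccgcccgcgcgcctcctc
The Gpm6a sequence held 44.4% G and C and 1 TEAD match, and the Slit3 sequence held 78.8% and none. Of the outside markers, 19 of 26 genes had a sequence, with 23 promoters, and 5 of these (of Cldn15, Gpm6a, Igfbp5, Lrrn4 and Upk3b) held the motif, which is 21.7% against 12.6% of all 32851 promoters. Among the rule and leading genes, 19 of 28 had a sequence, and 4 of 25 promoters held it. The GATA motif AGATAA was found in 1 of the 23 and 3 of the 25, against 9.99% of all, and the WT1 motif GCGTGGG in 1 of each, against 4.30%. None of the 3 motifs contains another, all were searched on both strands, and a match is a description of the letters only.

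Mesothelial nuclei made up a larger share of the barcodes in Tg mice. The share was 1.43% (95% exact binomial interval 1.29% to 1.58%) and 1.23% (1.12% to 1.34%) in WT mice and 8.63% (8.28% to 8.98%) and 7.08% (6.84% to 7.32%) in Tg mice, and these intervals cover counting error only. The genotypes did not overlap. The mean was 1.33% ± 0.143 in WT and 7.85% ± 1.10 in Tg mice (SD, n = 2 each), a ratio of 5.91, with p = 0.333 in the two-sided exact permutation test, which is the smallest p that 2 against 2 mice allow. The members were also more numerous relative to other nuclei. There were 198 and 191 members per 100 alveolar fibroblast nuclei in WT mice and 537 and 872 in Tg mice (a ratio of 3.62), and 51.6 and 38.2 per 100 alveolar type 1 nuclei against 136 and 198 (3.72).

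The size of this difference moved with the rule and with depth, and not all of the barcodes counted below it need hold a nucleus. Without Wdr17 in the rule, whose own level differed between genotypes, the shares were 1.28%, 0.991%, 6.70% and 5.67%. With every barcode thinned to 1500 UMIs they were 1.01%, 0.747%, 7.37% and 6.07%, and with thinning and without Wdr17 they were 0.817%, 0.516%, 3.42% and 2.98%, a ratio of 4.80. Among barcodes of at least 2500 UMIs the shares were 4.26%, 3.75%, 11.4% and 10.4%, a ratio of 2.72. The groups stayed apart in each of these settings. They overlapped when members that also met the rule of any other class were left out, which left 0.516%, 0.106%, 1.47% and 0.225% (exact permutation p = 0.667). That setting takes out most members, mainly through the alveolar type 2 rule, and with members of the alveolar type 1, alveolar fibroblast and ciliated rules left out the ratio was 6.34.

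**Figure D2:**
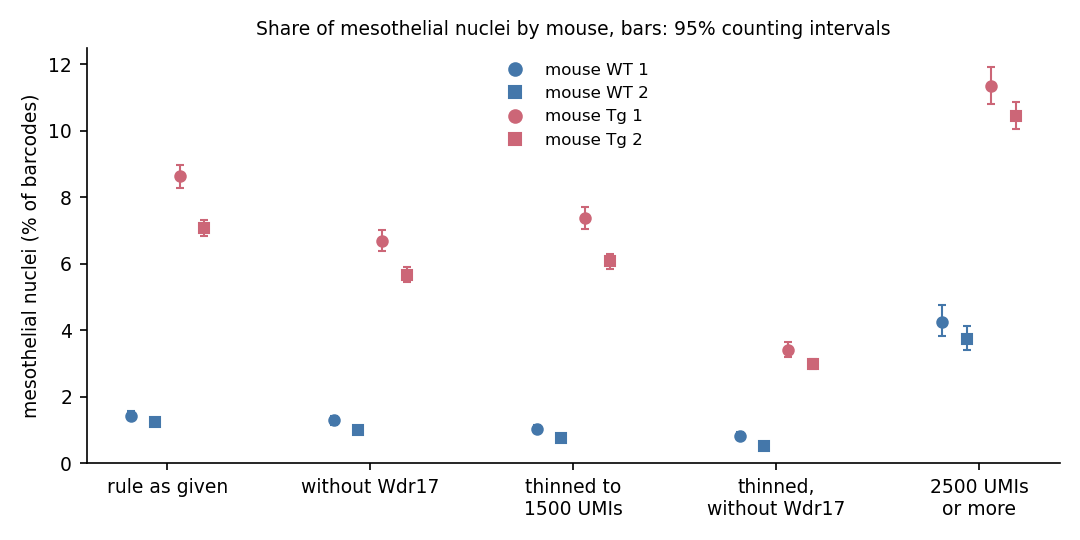
Share of mesothelial nuclei among barcodes of each mouse, in percent, under the rule as given, without Wdr17, after thinning to 1500 UMIs, with both, and among barcodes of at least 2500 UMIs. Bars are 95% exact binomial intervals. The 2 Tg mice lie above the 2 WT mice in each setting, and the distance is smallest in ratio at 2500 UMIs or more.

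Wdr17, a WD repeat protein gene among the 8 rule genes, differed most clearly between genotypes among those genes. The members held 891 and 691 CPM in WT mice and 7017 and 3580 in Tg mice, and the median nucleus held 3 and 2 UMIs against 20 and 12. Since the rule counted these UMIs, the test was made on nuclei chosen without Wdr17. There the levels were 912, 735, 7351 and 3739, a log2 difference of 2.74 ± 0.358 (SE, edgeR adjusted p = 0.0109, higher in both Tg mice). Of the other 7 rule genes, each tested on nuclei chosen without it, none passed the threshold, with log2 differences from -0.62 for Tmem108 to 1.01 for Msln (adjusted p = 0.0576 in edgeR), the surface glycoprotein mesothelin after which the class is often recognised. Thus Nxph1, a ligand of neurexins, differed by -0.42, the zinc finger gene Bnc2 by -0.51, the ErbB ligand gene Nrg2 by -0.09, the basement membrane gene Fras1 by -0.16 and Lhfpl3 by 0.28.

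Wdr17 was higher in Tg mice outside the members too. It had 12.8 and 15.0 CPM in alveolar fibroblast nuclei of WT mice and 69.2 and 64.6 in those of Tg mice, and 99.6, 61.7, 689 and 267 in alveolar type 1 nuclei. In empty droplets it had 32.9, 28.6, 142 and 182, which is 5.27-fold higher in Tg mice. Without the barcodes of that band that met the marker part of the rule it had 32.9, 28.3, 140 and 171. In the 12246, 18967, 10079 and 14067 barcodes of the band with under 500 UMIs it had 63.8, 51.7, 289 and 353. These splits were made after the data were seen. The difference between the genotype change in members and in the other classes did not pass the test, with members chosen without Wdr17: it was 0.46 ± 0.393 (SE, edgeR adjusted p = 0.945) on the log2 scale against alveolar fibroblast nuclei and 0.19 ± 0.219 (adjusted p = 0.984) against alveolar type 1 nuclei. Wdr17 lies on the minus strand of chromosome 8 at 54629055 to 54887184 in GENCODE vM21, and Gpm6a on the plus strand. The longest RefSeq span of Gpm6a (54779434 to 55060878) shares 107751 bases with that span of Wdr17, whereas the GENCODE spans of the genes are 67658 bases apart. Per Gpm6a UMI, the members held 0.274 and 0.230 UMIs of Wdr17 in WT mice and 2.91 and 1.27 in Tg mice. Per the study's methods, all libraries went through 1 version of Cell Ranger with reads in introns counted. The headers of all 4 matrices name the same software, in an earlier version than the labels. How strand was handled in counting is not given in the sources used here, and whether it had a part in the Wdr17 levels was not tested.

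Genes that GENCODE vM21 annotates as antisense were also counted together, a grouping made after the values had been seen. Their summed level in the members was 7674 and 8122 CPM in WT mice and 15891 and 12312 in Tg mice, 1.79-fold higher. The levels were 8377, 7782, 15050 and 11695 in alveolar fibroblast nuclei and 7353, 7703, 14060 and 11834 in alveolar type 1 nuclei of the same mice. In empty droplets the order was not the same, with 7254 and 6149 in WT mice and 5534 and 6501 in Tg mice. Of the 2955 antisense genes, 720 passed the filter on low counts, and those with no UMI in WT members passed it through the Tg mice alone. By edgeR's test 221 of these 720 were higher in Tg members and 5 lower, beside 856 and 213 of 13365 protein-coding genes. These counts are a description of the genes that passed and support nothing about antisense genes as a group, for which the sum above used no filter. No antisense gene passed the test of a difference in genotype change from either class.

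**Figure D3:**
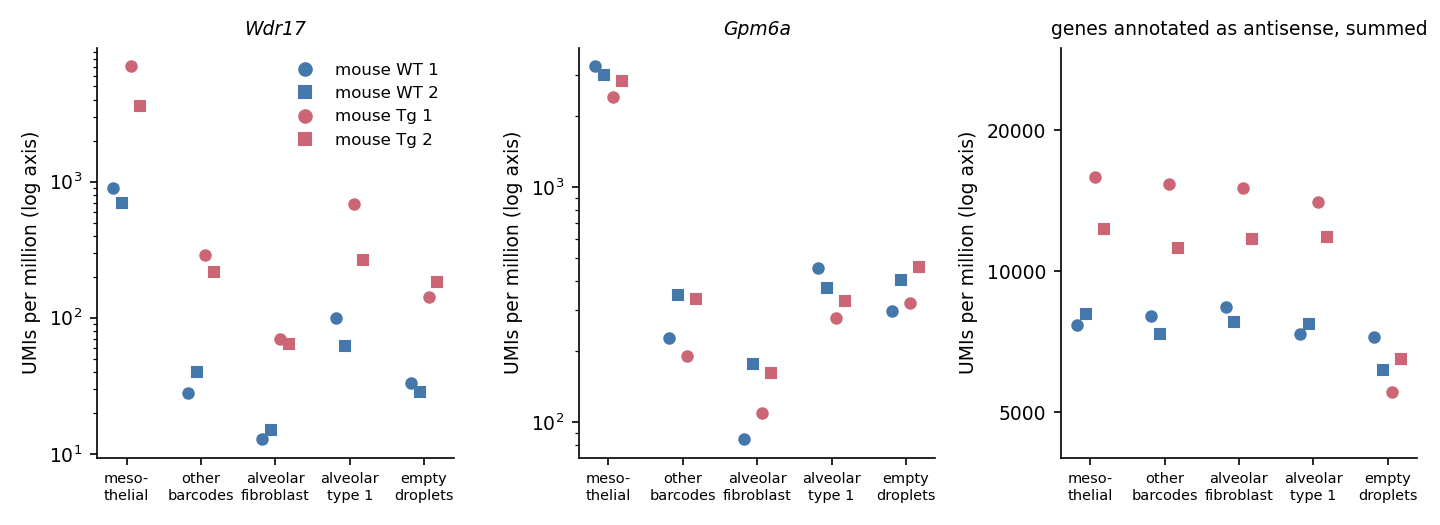
CPM of Wdr17, Gpm6a and the summed antisense genes, on log axes, in mesothelial nuclei, other barcodes, alveolar fibroblast nuclei, alveolar type 1 nuclei and empty droplets of each mouse. Wdr17 is higher in both Tg mice in all 5, Gpm6a lies between 2410 and 3249 in mesothelial nuclei, and the antisense sum is higher in Tg mice in the 4 sets of nuclei or deep barcodes and not in empty droplets.

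Over all genes, 1370 of 14967 tested in the members differed between genotypes by edgeR's quasi-likelihood test at an adjusted p of 0.05, which is 9.15%. Of these, 1133 (7.57%) were higher and 237 (1.58%) lower in Tg mice, and the median log2 difference of all genes was 0.03. The same test called 720 of 11366 genes in alveolar fibroblast nuclei (6.33%, with 5.61% higher and 0.721% lower) and 830 of 14800 in alveolar type 1 nuclei (5.61%, with 5.45% higher and 0.162% lower). With the profile of empty droplets subtracted, 184 of 13539 genes were called in the members, 161 of them higher. The count was 457 without Tg 1 and 2061 without WT 2.

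Among 198 tested genes of 12 lists for mesothelial biology, with the rule genes Fras1 and Nrg2 left out, 24 passed the threshold (12.1%), 14 higher and 10 lower in Tg mice. The lists and the leading genes were assembled with results of these data known. Counts are thus read only beside the 9.15% of all genes, with 7.57% higher and 1.58% lower. In empty droplets, the log2 difference was 1.00 to 2.80 for the 14 genes that rose in the members and -1.94 to -0.21 for the 10 that fell. After subtraction of that profile 7 of the 24 passed the threshold: Igfbp6, Itga8, Lama2, Sema3a, Slit3, Vegfa and Vim. Under the stricter rule of 12 UMIs from at least 5 rule genes, 18 of the 24 passed, and Frem1, Itga8, Lama2, Phlda3, Upk3b and Vegfa did not. Whether free RNA had a part in the other differences was not tested beyond this.

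Of the 26 outside markers, 7 rose in Tg mice and none fell, beside 7.57% higher and 1.58% lower of all genes, with a median log2 difference of 0.44. The median of the same markers was 1.08 in alveolar fibroblast nuclei (25 tested, 7 higher) and 1.08 in alveolar type 1 nuclei (26 tested, 5 higher), and after the profile of empty droplets was subtracted it was 0.04 in the members, with 1 gene higher. Krt19 rose by 1.93 ± 0.258 (SE) and Krt8, its keratin partner of simple epithelia, from 28.7 and 25.3 to 94.1 and 69.4 CPM (1.57 ± 0.240, edgeR adjusted p = 0.0106). Upk3b, a uroplakin, had 82.1 and 186 CPM in the WT and 387 and 322 in Tg members (1.37 ± 0.323, edgeR adjusted p = 0.0404). The insulin-like growth factor binding protein Igfbp6 had 76.3, 184, 475 and 457, and Igfbp5 had 990, 789, 1720 and 1749. Slpi, a secreted protease inhibitor, had 39.2, 53.1, 173 and 161, with 2.52 as its log2 difference in empty droplets against 1.81 in the members, where Krt19 had 2.58 against 1.93 and Upk3b 1.72 against 1.37. In all of these the genotypes did not overlap. With 2 against 2 mice, here and below, this can occur without a difference, and its share over all genes was not counted. Of the 7 markers in the plot of the defining markers, Upk3b and Krt19 passed the threshold and 5 did not: Wt1 differed by -0.44 (adjusted p = 0.128), Muc16 by 0.05, Upk1b by -0.04, Gpm6a by -0.29 and Lrrn4 by 1.00 (adjusted p = 0.0509, all edgeR).

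The secreted signals of mesothelium had 5 genes lower and none higher of 20 tested, beside 1.58% lower and 7.57% higher of all genes, with a median of -0.43. SLIT proteins are secreted ligands of ROBO receptors that guide axons and migrating cells. Slit3 had 538 and 587 CPM in WT members and 129 and 138 in Tg members, a log2 difference of -2.11 ± 0.165 (edgeR adjusted p = 0.0035), 4.32-fold lower. Slit2 had 508, 349, 192 and 211 (-1.13 ± 0.229). Sema3a, a secreted semaphorin that repels axons, had 239, 214, 107 and 111 (-1.09 ± 0.167). Vegfa, the growth factor of ECs, had 138 and 110 in the WT and 56.7 and 68.7 in Tg members (-1.02 ± 0.196, edgeR adjusted p = 0.0224), and the chemokine gene Ccl2 had 5.23, 3.21, 0.898 and 0.845. The WT and Tg members did not overlap for any of these 5, which the test on the same mice had picked. Under the stricter rule Vegfa differed by -0.66 (edgeR adjusted p = 0.0712), and without members that met the alveolar type 1, alveolar fibroblast or ciliated rule by -0.47 (edgeR adjusted p = 0.206). Other classes held more of some of these genes. Alveolar fibroblast nuclei had 2562, 1704, 1140 and 1441 CPM of Slit2, and the summed alveolar fibroblast markers of the members were lower in Tg mice (2084 and 1849 against 1201 and 1397). Alveolar type 1 nuclei had 1665, 953, 936 and 917 of Sema3a and 1049, 543, 626 and 425 of Vegfa, and the members had 0.729 to 1.04 times the Sema3a level and 0.470 to 0.788 times the Vegfa level of the other barcodes. The part of other classes in these falls was not tested beyond this. Fgf9, Fgf18, Wnt5a and Bmp4 differed by -0.10, 0.17, -0.16 and 0.12 and Il33, the alarmin cytokine gene, by -0.64 (adjusted p = 0.0592), none past the threshold in edgeR.

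The fall of Slit3 was larger in the members than in alveolar fibroblast nuclei, where it had 1155 and 1267 CPM in WT mice and 931 and 1078 in Tg mice. The difference of the log2 changes was -1.80 ± 0.142 (edgeR adjusted p = 0.000287), and with the empty-droplet profile subtracted it was -1.91 and did not pass (edgeR adjusted p = 0.137). Alveolar type 1 nuclei had 26.5, 48.1, 15.7 and 19.97, and the difference from them did not pass the threshold (-1.06, edgeR adjusted p = 0.716). Empty droplets held 77.6 and 85.6 in WT mice and 21.3 and 24.3 in Tg mice, less than the members of each mouse. At least 1 UMI of Slit3 was found in 51.9%, 47.4%, 20.7% and 21.1% of the members, and after thinning to 1500 UMIs in 38.4%, 28.8%, 12.2% and 13.2%. The thinned share in alveolar type 1 nuclei, a class not known for this gene, was 4.42%, 6.31%, 2.38% and 2.68%, at median depths of 3213 to 4117.5 UMIs. Slit3 was uneven among the members, since the top 10% of nuclei held 54.7%, 70.3%, 76.6% and 79.1% of its UMIs. In members with 4 or 5 rule genes it had 493, 849, 111 and 170 CPM, and in those with 6 or 7 it had 507, 399, 134 and 126. In members with all 8 the genotypes overlapped, at 839 and 147 against 154 and 103, with 29 and 30 nuclei in WT mice and 185 and 269 in Tg mice.

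**Figure D4:**
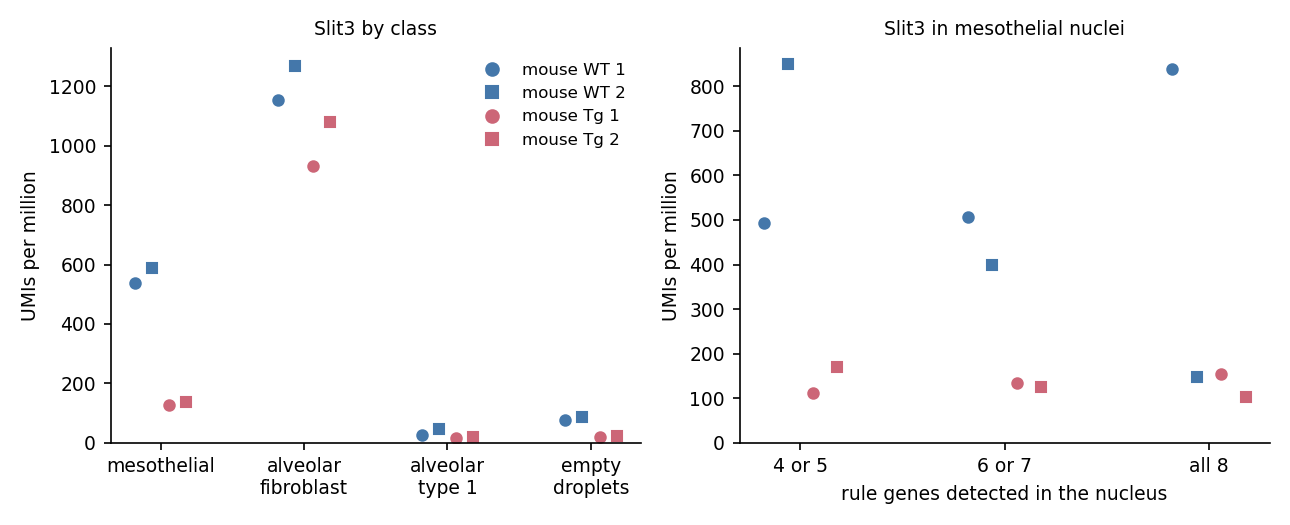
Slit3 in CPM in each mouse, on the left by class of nuclei and in empty droplets, and on the right in mesothelial nuclei by the number of rule genes detected. The Tg mice lie near 129 and 138 and the WT mice at 538 and 587 in mesothelial nuclei, whereas the genotypes lie close together in alveolar fibroblast nuclei, and WT 2 lies with the Tg mice among members with all 8 rule genes.

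In all, 5 of 12913 genes (0.0387%) differed in their genotype change between members and alveolar fibroblast nuclei, 4 with a lower change in the members (0.0310%) and 1 with a higher one (0.00774%), and Slit3 had the lowest p. With the empty-droplet profile subtracted, none of the 5 differences passed the threshold. C7, a component of the terminal complement pathway, had 153 and 174 CPM in the WT and 39.0 and 49.6 in Tg members (-1.92), with a difference of -1.38 (edgeR adjusted p = 0.0194). Adamts17, a secreted metalloprotease, had 20.9, 29.2, 7.44 and 9.14, with a difference of -1.75 (edgeR adjusted p = 0.0162). Both falls sat in members with few rule genes. At 4 or 5 rule genes C7 had 421, 320, 60.3 and 93.2 and Adamts17 had 52.2, 56.7, 10.9 and 16.1, whereas at 6 or 7 rule genes C7 had 27.3, 50.1, 34.1 and 27.7 and Adamts17 had 6.38, 4.93, 5.39 and 5.93. Under the stricter rule the log2 differences were -0.15 for C7 and -0.32 for Adamts17 (edgeR adjusted p = 0.747 and 0.604). In alveolar fibroblast nuclei C7 had 2038, 1757, 1311 and 1355 CPM and Adamts17 had 131 to 189. Csmd1, a large membrane protein that holds complement in check, had 15.2, 12.5, 5.39 and 8.15 in the members and 201, 229, 11.3 and 32.7 in alveolar fibroblast nuclei, a difference of 2.29 (edgeR adjusted p = 0.0465), which was 2.11 with Wdr17 left out of the rule and did not pass (edgeR adjusted p = 0.173).

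No gene of 15864 passed the test of a difference from alveolar type 1 nuclei in edgeR, and 729 had an unadjusted p under 0.05. The lowest p belonged to Hpgd, the enzyme that breaks down prostaglandins, with a difference of -1.45 (edgeR adjusted p = 0.225). Hpgd had 324 and 298 CPM in WT members and 191 and 133 in Tg members (-0.97, edgeR adjusted p = 0.0396), against 22.0 to 36.4 in alveolar type 1 nuclei.

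Of the Fraser complex and the basement membrane, 27 genes were tested beside the rule gene Fras1, with 1 higher, 3 lower and a median log2 difference of -0.21. Lamb2, a laminin chain, rose from 8.89 and 12.8 to 56.5 and 38.1 CPM (2.07 ± 0.307, edgeR adjusted p = 0.00998). Lama2, another laminin chain, fell from 72.1 and 91.3 to 17.3 and 29.7 (-1.83 ± 0.257, edgeR adjusted p = 0.00951), and was -1.22 under the stricter rule (adjusted p = 0.0838). Alveolar fibroblast nuclei held 932, 746, 502 and 620 CPM of Lama2, and the summed alveolar fibroblast markers of the members were lower in Tg mice as well (2084 and 1849 against 1201 and 1397). The part of these in the change of Lama2 was not tested. Frem1, a partner of Fras1 in the Fraser complex, had 18.3, 17.1, 6.16 and 8.91 (-1.25, and -0.95 under the stricter rule, edgeR adjusted p = 0.126). Itga8, the integrin chain that binds nephronectin, had 65.9, 68.1, 20.9 and 32.6 (-1.35), but 0.42 was the log2 difference under the stricter rule and 0.019 without members that met the alveolar type 1, alveolar fibroblast or ciliated rule. The collagen IV genes Col4a1 to Col4a6 differed by -0.36 to 0.18, and none passed the threshold in edgeR.

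In the TGF-beta and mesenchymal transition list 1 gene was higher and 1 lower of 23, with a median of -0.21. Vim, the mesenchymal intermediate filament, had 85.2 and 157 CPM in the WT and 295 and 400 in Tg members (1.48 ± 0.270, edgeR adjusted p = 0.0187). The members held 0.589 to 1.05 times the Vim level of the other barcodes, and empty droplets held 114, 330, 687 and 837 CPM. Vim was higher in Tg mice in alveolar fibroblast nuclei (73.9, 168, 260 and 366) and alveolar type 1 nuclei (39.5, 120, 189 and 295) as well. Zeb2, a repressor of E-cadherin, had 389, 434, 156 and 243 (-1.08 ± 0.216, edgeR adjusted p = 0.025). The genotypes did not overlap for either gene, both of which the test on the same mice had picked. In every mouse the members held less Zeb2 than the other barcodes (0.322 to 0.490 times their level) and than empty droplets (804, 884, 208 and 374 CPM), and alveolar fibroblast nuclei held 1737, 1374, 810 and 1117. With the empty-droplet profile subtracted Zeb2 differed by -0.35 and did not pass, and the part of the fibroblast markers, which were lower in Tg members too, was not tested. Col1a1, Col3a1, Fn1 and Acta2 differed by 0.65, 0.01, -0.07 and 0.47, and none of them passed the threshold.

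Complement and antigen presentation had 4 genes higher and none lower of 15, with a median of 0.48. The same list had a median of 0.50 in alveolar fibroblast and 0.77 in alveolar type 1 nuclei, with 3 of 15 genes higher in each. A rise over this list was thus not particular to the members. Serping1 had 8.21, 16.8, 59.7 and 57.3 CPM in alveolar type 1 nuclei and 156, 115, 165 and 168 in alveolar fibroblast nuclei. C3, the central component of complement and also a mesothelial marker here, had 395, 349, 989 and 705 CPM (1.16 ± 0.235), and C4b had 122, 157, 416 and 336 (1.40 ± 0.200). Cfb, which the alternative pathway needs, had 39.2, 50.3, 107 and 107 (1.22 ± 0.176), and Serping1, the inhibitor of C1, had 89.9, 102, 184 and 151 (0.77 ± 0.183). These 4, picked by the test on the same mice, lay apart by genotype in the members. In empty droplets their log2 differences were 1.27, 2.15, 1.52 and 2.80, and none of the 4 passed the threshold after that profile was subtracted (edgeR adjusted p = 0.148, 0.0748, 0.102 and 0.649). Cd74, the invariant chain of MHC class II, passed then as a rise (edgeR adjusted p = 0.0194), with 1.498 as its log2 difference without subtraction (edgeR adjusted p = 0.0894).

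Of the CDK inhibitors and p53 targets, 2 of 15 were higher and none lower, with a median of 0.38. Cdkn1a (p21) had 25.6 and 41.0 CPM in the WT and 68.0 and 82.8 in Tg members (1.13 ± 0.225, edgeR adjusted p = 0.025), and Phlda3, a repressor of AKT, had 4.18, 3.21, 10.7 and 12.2 (1.62 ± 0.358). Cdkn2a had 0.898 to 2.14 and was too low to test. For Cdkn1a the log2 difference was 0.53 in alveolar fibroblast nuclei, 1.05 in alveolar type 1 nuclei and 1.00 in empty droplets. Phlda3 rested on 8 and 9 UMIs in WT members and 83 and 159 in Tg members. The members held 0.675 to 1.02 times the Phlda3 level of the other barcodes. Phlda3 was also higher in Tg mice in alveolar fibroblast nuclei (0.986, 2.49, 11.3 and 14.5 CPM) and alveolar type 1 nuclei (2.65, 1.93, 7.66 and 8.16). Empty droplets held 6.095, 6.03, 27.1 and 25.1 CPM of it, so its rise was not particular to the members. Adhesion and polarity had 1 gene lower of 17, Cdh11, a cadherin of mesenchyme (539, 432, 253 and 288, -0.88 ± 0.195), with a median of -0.45. Alveolar fibroblast nuclei had 991, 717, 625 and 734 CPM of Cdh11, more than the members of each mouse. Cdh11 is itself among the 8 alveolar fibroblast markers that chose those nuclei, so the lower marker sum of Tg members includes its own fall. The part of fibroblast RNA in this fall was not tested. Among 13 hypoxia genes tested, Vegfa alone passed, as a fall, with a median of 0.13. Under the stricter rule none passed (median -0.14), and with the empty-droplet profile subtracted Ldha, a lactate dehydrogenase chain, passed as a rise beside the fall of Vegfa (edgeR adjusted p = 0.0477 for Ldha).

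No gene passed the threshold in 4 lists, at edgeR's adjusted p of 0.05. These were retinoic acid (11 tested, median 0.09), neuregulin and ErbB without the rule gene Nrg2 (11, -0.31), Hippo and TEAD targets (15, -0.25) and Notch (12, 0.28). Aldh1a1 and Aldh1a2, which make retinoic acid, had 584, 702, 683 and 633 and 381, 261, 260 and 307 CPM. Yap1 and Wwtr1, the coactivators of TEAD factors, differed by -0.60 and -0.54 (adjusted p = 0.0669 and 0.0757), and Hes1, a Notch target, by 0.94 (adjusted p = 0.0686, all edgeR). With free RNA subtracted edgeR called 1 Notch gene higher, Notch1, and under the stricter rule 1 retinoic acid gene and 1 Hippo gene lower. Notch1 had 19.9, 27.8, 24.1 and 37.7 CPM in the members against 62.4, 85.0, 52.5 and 69.2 in empty droplets. Subtracted levels were not allowed to turn negative, which cut off those of both WT mice, so no rise of Notch1 is read from that call. In these lists DESeq2 called 1 retinoic acid gene, 3 Hippo genes and 1 Notch gene lower, 1 Notch gene higher, and no neuregulin gene.

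**Figure D5:**
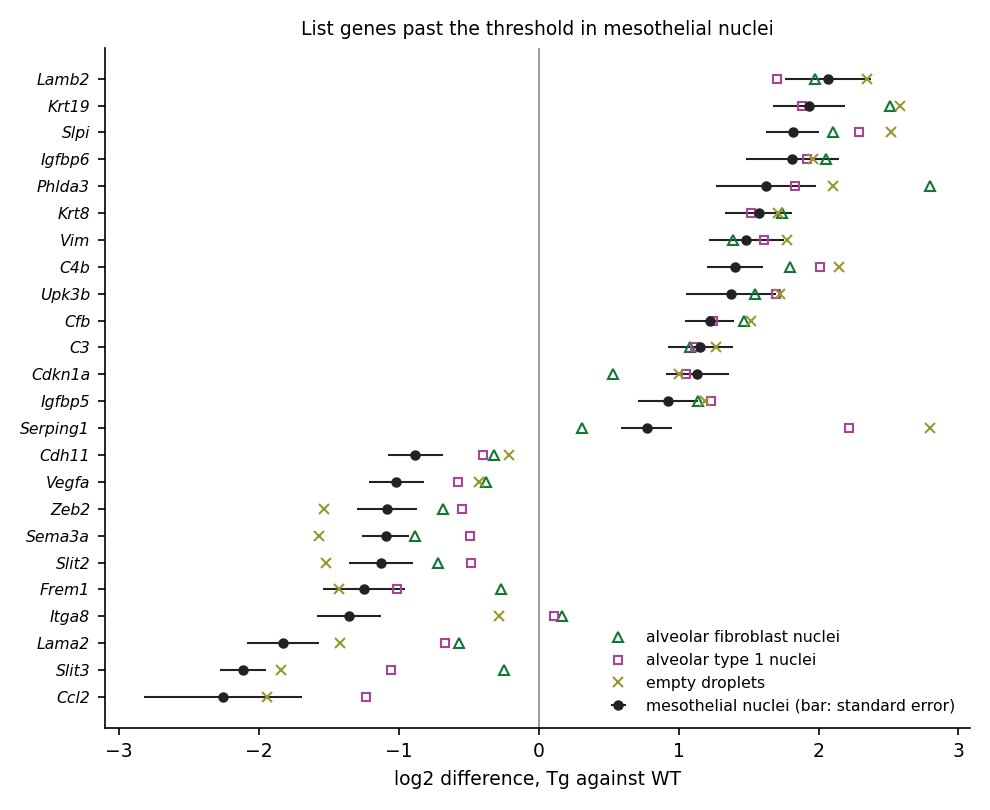
Log2 difference, Tg against WT, of the 24 list genes past the threshold in mesothelial nuclei (black points, bars are the standard error), with the difference in alveolar fibroblast nuclei, alveolar type 1 nuclei and empty droplets where it was measured. Slit3 reads -2.11 in mesothelial nuclei and -0.25 in alveolar fibroblast nuclei, and Serping1 reads 0.77 against 2.80 in empty droplets.

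The largest rises among all genes past the threshold rested on few UMIs. The largest falls ranged from few UMIs to the 44, 338, 57 and 133 UMIs of Pcdh15 (WT 1, WT 2, Tg 1, Tg 2). The 12 with the largest rise had 0 UMIs in both WT mice and 23 to 69 in each Tg mouse. They passed the filter on low counts through the Tg mice alone. Of the 12, 8 were annotated as antisense, beside 720 of all 14967 genes tested and 221 of the 1133 that were higher. A coding gene on the other strand overlapped 11 of them, and the share of such genes among all tested was not counted. Against a floor of 3 UMIs over the WT group the 12 were at least 4.23-fold to at least 8.77-fold higher. Gm47551, opposite Fcho2, had 61 and 55 UMIs in Tg members, and Bmp8b, which encodes a bone morphogenetic protein, had 2.95 and 3.38 CPM. Of the 12, 11 could be tested after the droplet profile was subtracted, and none passed. Of the 12 with the largest fall, 7 could be tested after the subtraction and none passed. They had Acod1 (23, 6, 1 and 6 UMIs, -4.32) and Ccl24 (20, 19, 4 and 7 UMIs, -3.998) at their head, the former an enzyme that makes itaconate and the latter a chemokine, both known from macrophages. Empty droplets held 26.7 and 9.17 CPM of Acod1 in WT mice and 0.179 and 1.34 in Tg mice. Npr3, the clearance receptor of natriuretic peptides, had 8.36 and 54.5 CPM in the WT and 2.82 and 4.15 in Tg members, and Pcdh15, a protocadherin, had 23.0, 120, 7.31 and 10.2 (edgeR adjusted p = 0.0698 and 0.0967 after the subtraction). WT 2 stood above WT 1 in both. Among the leading genes, Synpr, a membrane protein of synaptic vesicles, had 27.7 and 27.8 against 304 and 137 CPM (2.97 ± 0.403, edgeR adjusted p = 0.00866), higher in both Tg mice, and 1.85 was its log2 difference in empty droplets.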

How the data were processed

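Nuclei of whole lung from 2 WT and 2 VEcad-TRF2DN-Tg mice were sequenced with droplet barcodes. The authors deposited, for each mouse, unfiltered UMI counts (whole numbers, not normalized) of 32285 genes per barcode. Per the labels, Cell Ranger 6.1.1 and build mm10 were used with reads in introns counted per the study's methods, and the header of the matrices carries an earlier software version. How strand was handled in counting is not given in the sources used here. The filters, the removal of free RNA and the annotation of the study are not part of these counts. No other column was left out.

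The members were found by the marker rule in each matrix, with no doublet caller, and comparison nuclei of alveolar fibroblasts and alveolar type 1 cells by marker rules of the same kind, without members. In total, 125261739, 146133943, 128645180 and 182014706 UMIs were counted (WT 1, WT 2, Tg 1, Tg 2), of which the members held 1913129, 2805328, 7791752 and 13013296. Members, gene lists, leading genes and tests were chosen with earlier results of these data known. UMIs were summed per mouse, since nuclei of 1 mouse are not replicates, and given as CPM of the summed UMIs. Genes passed filterByExpr with a minimum count of 10, TMM gave the scaling, and Tg was set against WT by the quasi-likelihood test of edgeR 4.0.16 (limma 3.58.1, R 4.3.3) with Benjamini-Hochberg adjustment at 0.05. A difference between classes was the class-by-genotype interaction, with mouse as a further term. DESeq2 1.42.0 was an alternative. Shares were compared with exact permutation tests in Python 3.11.15 (SciPy 1.17.1).

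Named were the 12 largest rises and falls past the threshold without overlap between genotypes, up to 5 genes of each class difference, the 20 leading genes and the list genes. With 200 genes changed in simulated counts for the genotype comparison in members, 59.5% were recovered at 2-fold (14859 genes) and 94% at 4-fold (14831 genes), and 94% of 4-fold differences from alveolar fibroblast nuclei (12692 genes). The simulation used a fixed dispersion of 0.02 and the same profile for all mice, with no difference in free RNA. Only genes with a mean of at least 20 UMIs were changed, so these recoveries need not hold for the data. Gene types came from GENCODE vM21, matched for 14965 of 14967 tested genes, and promoters from RefSeq GRCm38.p6. Ero1a was not found in the files by this symbol. The alternatives tried were other UMI minimums, the size factors of DESeq2 and its test, a fit without the count filter, replicate as a block, leaving out single mice, a stricter rule, no limit on other cell types' genes, members of other rules left out, and the droplet profile subtracted. The rule without Wdr17 or another rule gene, thinning with that rule, and leaving out members of the alveolar type 1, alveolar fibroblast or ciliated rule were chosen after seeing the data. A gene among those that differed between classes is counted but not reported here.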

Additional observations from a re-analysis of the deposited data

Results flagged for a closer look

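The genotype change of 5 genes differed between mesothelial and alveolar fibroblast nuclei in the test of the difference itself (edgeR, adjusted p under 0.05). Among them, the log2 difference was -1.80 for Slit3, -1.75 for Adamts17, -1.38 for C7 and 2.29 for Csmd1. After the profile of empty droplets was subtracted, no gene passed, while the differences were -1.91 for Slit3, -1.87 for Adamts17, -1.52 for C7 and 2.82 for Csmd1 (edgeR adjusted p = 0.137, 0.180, 0.180 and 0.384). With Wdr17 left out of the rule 7 genes passed, all with a lower change in the members, and Csmd1 did not. Over 7 alternatives the difference for C7 ran from -1.63 to -0.963, and subtraction was not the only one in which it did not pass. Slit3 kept its own fall in the members under all 16 alternatives, at -2.41 to -1.51.

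In empty droplets, outside the nuclei compared, Wdr17 was 5.27-fold higher in Tg than in WT mice, with 142 and 182 against 32.9 and 28.6 CPM.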

How the results depend on the processing

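The count of 1370 genes changed in mesothelial nuclei became 184 with free RNA subtracted, 3111 of 23792 without the filter on low counts, 641 of 6585 without members that met another class rule, and 457 (without Tg 1) to 2061 (without WT 2) with a mouse left out. The correlation of deviations from the genotype mean was 0.0775 for WT 1 with Tg 1 and -0.0775 for WT 1 with Tg 2. With 2 mice per genotype these are the same value with its sign turned, so they cannot show whether replicate numbers paired the mice. With the number as a block the count was 2165. DESeq2 called 1438, 1008 of them higher. The 5 genes that differed from alveolar fibroblast nuclei became 0 with free RNA subtracted, 98 without the filter and 39 (without Tg 1) to 130 (without WT 2) with a mouse left out. The 0 that differed from alveolar type 1 nuclei became 88 without the filter and 0 to 57 (without WT 2) with a mouse left out. The cause was not tested.

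Of 832 alternative values of 59 results on named genes, 653 kept direction and side of the threshold, 162 lost the threshold, 7 passed it newly and 10 turned. Those were Itga8 with the stricter rule (0.42) and without members of the alveolar type 1, alveolar fibroblast or ciliated rule (0.019), Muc16 with free RNA subtracted (-0.13), the stricter rule (-0.038), without Tg 1 (-0.0025) and without WT 2 (-0.0098, with 0.13 the highest with a mouse left out), Upk1b without the filter (0.0050), without Tg 2 (0.091, with -0.14 the lowest with a mouse left out) and without members of another rule (0.16), and Gpm6a without those members (0.022). Only Itga8 was called in the main setting. Subtracting free RNA lost 38 of 52 values.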

Other observations

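Some list genes stayed outside the threshold in edgeR's test while their genotypes did not overlap. Cd74, the invariant chain of MHC class II, had 106 and 240 CPM in WT and 275 and 729 in Tg mesothelial nuclei (1.498, adjusted p = 0.0894 in edgeR). Rbpj, the DNA-binding partner of activated Notch, had 319, 224, 132 and 178 (-0.85, adjusted p = 0.0664 in edgeR). Smad3, which carries TGF-beta signals to the nucleus, had 168, 133, 81.2 and 103 (-0.74, adjusted p = 0.0593 in edgeR). Ldha, lactate dehydrogenase, had 20.4, 34.2, 49.3 and 54.6 (0.88, adjusted p = 0.0588 in edgeR). The class I gene H2-K1 had 546, 429, 183 and 357 (-0.90) and H2-D1 had 122, 142, 160 and 221 (0.50), neither past the threshold. These 6 genes were picked after their values were seen.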
